A study of Mus musculus with 8 samples.

Results

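The genes described here make up the nuclear-encoded machinery of the mitochondrion for respiration, protein import and protein synthesis. Members were chosen by symbol alone, as the genes whose names begin with Nduf, Sdha to Sdhd, Uqcr, Cox4 to Cox8, Atp5, Timm, Tomm, or with Mrpl or Mrps and a number. Symbols came from the NCBI gene identifier inside the row names of the deposited value table. This took 101 of the 8102 genes that could be named. Rows were then matched to the table of intensities by their 8 values, which left 99 members among 7111 genes, each represented by the probe with the highest mean intensity. The rows of Mrpl32 and Mrps36 matched several intensity rows, so both are not analysed here. Ndufs5-ps, which the RefSeq table lists as a transcribed pseudogene, was kept because the rule takes it.

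Total RNA was measured on 8 Illumina WG-6 bead arrays, 4 for each Sox9 genotype, from EGFP-positive cells that had been sorted from the vertebral column of mouse embryos (C57BL/6J;129 background) at E12.5, the stage in days after mating. In the group called WT, EGFP was placed behind the intact Sox9 gene through an internal ribosome entry site, so that cells making Sox9 also made EGFP. In the group called HOMO, EGFP replaced Sox9 on both alleles, and the cells came from chimaeric embryos because embryos that lack Sox9 throughout die early. Sox9 is the transcription factor that directs cartilage formation, and the comparison asked which transcripts depend on it.

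The 2 groups of arrays differed in overall signal, and every value below has to be read against that. Mean intensity over the 46643 probes was 285 to 364 on the WT arrays and 5.21 to 10.5 on the HOMO arrays, a 41.7-fold gap between the group means. Probes were detected (detection value above 0.95) at a rate of 43.7% to 45.7% on the WT arrays and 15.5% to 20.2% on the HOMO arrays. Signal, chimaeric origin and genotype cannot be told apart in this design. Sox9 itself had no named probe. The probe for EGFP, the sort marker, was detected on 4 of 4 WT arrays (intensities of 92.4, 110.5, 116.6 and 114.3) and on no HOMO array. Both groups were sorted on EGFP, but its normalized log2 level in WT (6.19) lay below the lowest detected HOMO level (mean 7.09). EGFP at the WT level would thus go undetected in HOMO. The probe for the neomycin resistance gene was detected on all 8. Cartilage markers were present in WT, with 7 to 8 of 9 measured genes detected on each array and 0.131% to 0.199% of the array's summed intensity. In HOMO, 3 to 4 of the 9 were detected, with 0.0178% to 0.025%. Neuron markers took 0.0293% to 0.0763% in WT and 0.0117% to 0.0176% in HOMO, and erythroid markers took 0.0193% to 0.0443% and 0.0118% to 0.139%. Among neuron markers, Snap25 (mean intensity 19.9 in WT, 18.1 in HOMO) and Tubb3 (272 and 10.2) fell less than the array means. Dcx, the brightest in WT, fell more (2688 and 6.15). The summed share of the 2 sclerotome markers was larger in HOMO (0.0427% to 0.0491%, 1 of 2 detected) than in WT (0.0154% to 0.0185%, 2 of 2 detected). Pax1 set that sum (mean intensity 2548 in WT, 198 in HOMO), while Tbx18 went from 92.4 to 0.65 and was undetected in HOMO. The 3 endothelial markers also took a larger share in HOMO (0.00646% to 0.00747% against 0.00132% to 0.00445%). The summed share of the 4 macrophage markers was smaller in HOMO (0.00415% to 0.00540% against 0.0171% to 0.0193%). Dab2 set that sum (mean intensity 2776 in WT, 13.4 in HOMO), while Lcp1 went from 29.6 to 7.0, less of a fall than that of the array means. The summed share of the 6 markers of neural progenitors overlapped between the groups (0.00608% to 0.0133% in WT, 0.00497% to 0.00765% in HOMO). Nkx6-2 set most of the HOMO sum (mean intensity 37.4 in WT, 18.2 in HOMO). Sox21 (864 in WT), Nes (298) and Sox2 (227) were undetected in HOMO. Negative values were set to 0 for these shares, which enlarges the totals of the dim HOMO arrays more and so lowers their shares. The part of these other cell types in the members' values was not tested, and fewer cells of a type cannot be told from less RNA per cell.

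Respiration runs through a chain of protein complexes in the inner mitochondrial membrane. Complex I takes electrons from NADH and complex II from succinate, complex III passes them to cytochrome c, complex IV hands them to oxygen, and ATP synthase uses the resulting proton gradient to make ATP. A small core of these subunits is made inside the organelle by its own ribosome. All other subunits, and every ribosomal protein, are made in the cytosol from nuclear genes and enter through the TOM complex of the outer membrane and the TIM complexes of the inner membrane. These genes are active in nearly every cell, and many of their promoters hold sites for NRF1, for ETS factors such as GABP, and for YY1.

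In WT cells the members lay near the top of each array. Their median within-array percentile, the rank of a probe's intensity among all probes of the same array, was 95.4 to 96.0 on the 4 WT arrays, while the median of all 7111 genes was 72.4 to 73.1. Between 69 and 72 of the 99 members lay above the 90th percentile, compared with 22.6% to 22.9% of all genes. Each WT array detected 94 to 95 of the 99 members, and 94 were detected on all 4 (94.9%, all genes 63.4%). Together the members carried 1.32% to 1.503% of the summed intensity of a WT array. Since the brightness of a probe also depends on its sequence, ranks are given here to describe probes and do not order genes by abundance.

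The brightest member probe was that of Atp5j2, a small membrane subunit of ATP synthase, with intensities of 11699, 10743, 10866 and 12672 on the 4 WT arrays. Its HOMO intensities were 587, 482, 393 and 500.3. Atp5h, a subunit of its peripheral stalk, followed with 9667, 9912, 8332 and 10190 in WT and 401, 311, 210 and 357 in HOMO. Among complex I genes Ndufa13, an accessory subunit that also goes by the name GRIM-19, had intensities of 9616, 8564, 7782 and 9652 in WT and 405.6, 248.8, 201.4 and 355 in HOMO. Uqcrh, the hinge protein of complex III next to cytochrome c1, averaged 8901 in WT and 194 in HOMO, and Cox6c, a small subunit of complex IV, averaged 8503 and 109. These 5 probes ranked between 98.9 and 99.8 on every array of both groups.

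Classes differed in where their median probe ranked in WT. The 9 complex IV genes had a median percentile of 98.8 and the 9 ATP synthase genes 98.0. The 21 complex I subunits and 4 complex III genes both stood at 97.1, and the 4 complex II genes at 92.3. The large ribosomal subunit (18 genes) and the small one (15 genes) stood at 93.7 and 93.8, inner membrane import (6 genes) at 89.4, outer membrane import (7 genes) at 88.0 and complex I assembly factors (6 genes) at 86.2. The low end held Cox7a1, the form of a complex IV subunit typical of heart and skeletal muscle, whose WT intensities were 39.1, 27.4, 35 and 31.3. It also held Ndufab1, the mitochondrial acyl carrier protein, with 41.9, 43.3, 25.5 and 37.0. The probes of Sdha, the flavoprotein of complex II, of Timm23, the channel of the inner membrane translocase, of Timm29 and of Ndufaf6 were detected on none of the 8 arrays, so 95 members entered the test.

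**Figure D1:**
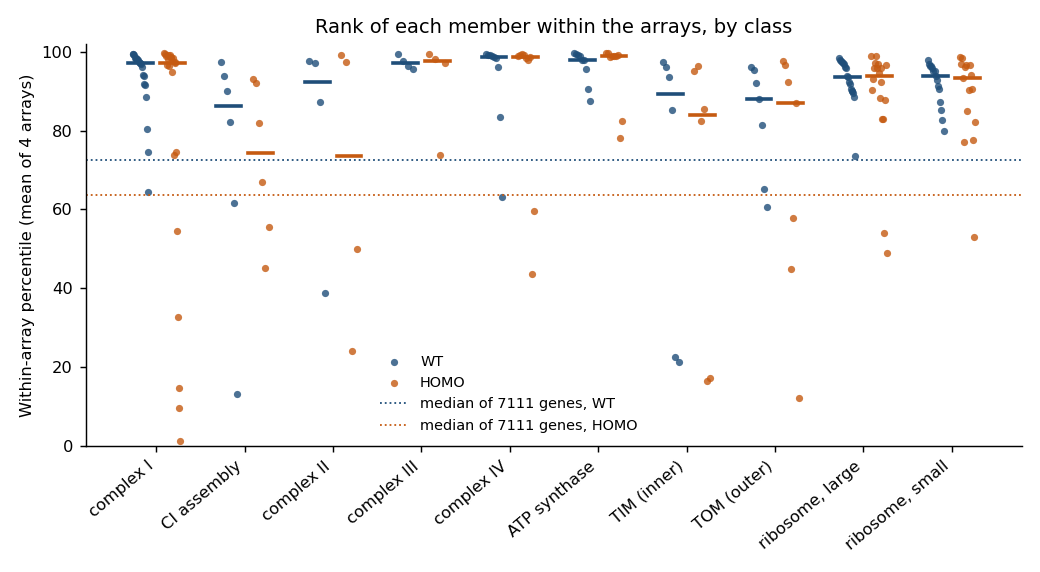
Within-array percentile of each of the 99 members (points, mean of 4 arrays), with WT in blue and HOMO in orange, by class along the horizontal axis. Short bars mark class medians and dotted lines the median of all 7111 genes, 72.6 in WT and 63.6 in HOMO. Medians of complexes III and IV and of ATP synthase lay between 97.1 and 99.0 in both groups, while single members dropped far, Ndufab1 to 1.11.

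Promoter windows were examined because the members share regulators by textbook knowledge. RefSeq windows (GRCm38.p6, 250 bases before to 50 bases after a start) were found for 87 of the 99 members and searched on both strands for the NRF1 motif (GCGC, any base, TGCGC), the ETS motif CCGGAAGT and the YY1 motif AAGATGGC. The NRF1 motif was present in 20 of the 87 (23.0%), against 5.19% of all 27025 genes with such a window and 9.59% of the 5622 that the array also measured. The ETS motif was present in 15 (17.2%, against 4.31% and 7.42%) and the YY1 motif in 12 (13.8%, against 3.19% and 4.80%). At least 1 of the 3 occurred in 45 members (51.7%, against 11.7% and 19.9%). Matches of different motifs overlapped in none of the members. The median GC content of the windows was 58.7% for members, 59.2% for the array's genes and 52.8% for all genes. A match of these letters is not evidence of binding. The windows below, each 30 bases long and 5′ to 3′ along the gene, belong to members on which the comparison turns, with the motif or its reverse complement in capitals.
Tomm20, NRF1, chr8:126945922-126945951, minus strand: gggtccatctGCGCGTGCGCaccaggcgtt
Atp5g2, NRF1, chr15:102671070-102671099, minus strand: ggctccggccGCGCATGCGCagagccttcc
Mrps21, NRF1, chr3:95871586-95871615, minus strand: ggaaagtccaGCGCCTGCGCtcagcaccga
Ndufb4, NRF1, chr16:37654371-37654400, minus strand: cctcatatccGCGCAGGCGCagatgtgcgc
Mrpl18, ETS, chr17:12916312-12916341, minus strand: actgaaaacgCCGGAAGTagggggctgcgg
Tomm70a, ETS, chr16:57121623-57121652, plus strand: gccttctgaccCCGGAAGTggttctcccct
Uqcrh, ETS, chr4:116075063-116075092, minus strand: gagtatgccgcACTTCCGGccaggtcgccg
Ndufs4, YY1, chr13:114388045-114388074, minus strand: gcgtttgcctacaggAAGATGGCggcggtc
Atp5j2, YY1, chr5:145191500-145191529, minus strand: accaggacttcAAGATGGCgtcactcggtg

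In HOMO cells the members kept their high ranks as a group, while 20 members were detected on no HOMO array, 4 of which were undetected in WT as well. The median percentile was 94.98 to 95.8 on the 4 HOMO arrays, compared with 65.8 to 67.9 for all genes, and 58 to 64 members lay above the 90th percentile (17.5% to 20.6% of all genes). Detected members numbered 77, 70, 70 and 73 on HOMO replicates 1 to 4. Of the 99 members, 64 were detected on all 4 HOMO arrays (64.6%, all genes 21.6%), 15 on 1 to 3 and 20 on none (20.2%, all genes 58.3%). Relative to its own array, 53 members ranked lower in HOMO and 46 higher. The same split was not counted over all genes, whose median percentile was 72.4 to 73.1 in WT. Ranked among detected probes alone, the members' median percentile was 90.6 in WT and 84.0 in HOMO. The members' share of the summed intensity was 1.18% to 1.28%, below the WT range.

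ATP synthase was the class whose share of an array's signal was higher in HOMO without overlap, at 0.303% to 0.346% against 0.246% to 0.295% in WT. Complex II overlapped between the groups (0.0355% to 0.0494% against 0.0352% to 0.0373%). The other 8 classes took smaller shares on every HOMO array than on any WT array. Complex I subunits went from 0.336% to 0.394% down to 0.304% to 0.321%, complex IV from 0.232% to 0.261% down to 0.177% to 0.202%, and inner membrane import from 0.0339% to 0.0413% down to 0.0173% to 0.0215%. These shares use deposited intensities with negative values set to 0 and involve no scaling between arrays. That step enlarges the totals of the dim HOMO arrays more and so lowers their shares, by an amount not given here. They were not tested, and a few bright probes set most of each sum.

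**Figure D2:**
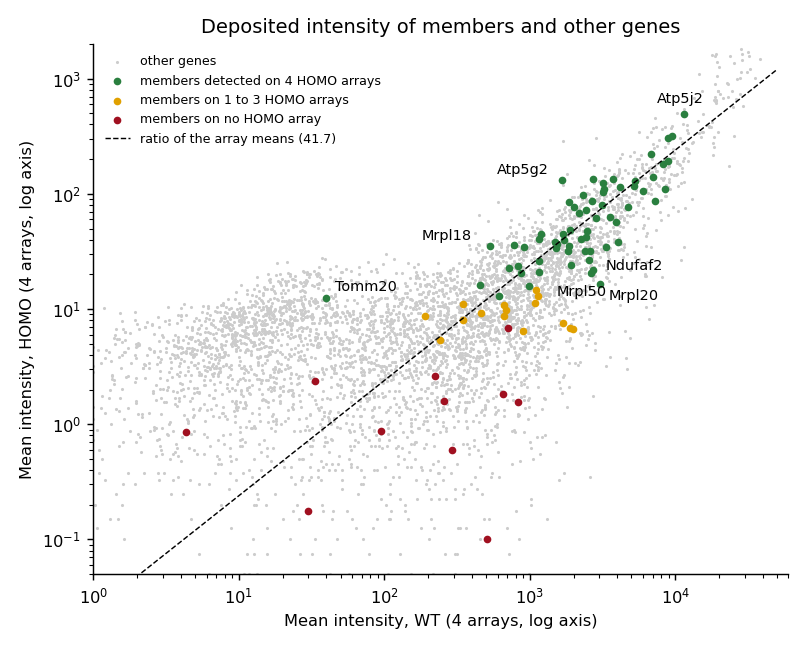
Mean deposited intensity of members (coloured by detection in HOMO) and other genes (grey) in WT (horizontal) and HOMO (vertical), both axes logarithmic, with 90 members drawn and 9 left out because a mean was 0 or below. The dashed line is the 41.7-fold ratio of the array means. Tomm20, Mrpl18 and Atp5g2 lie far above it, and Mrpl20, Mrpl50 and Ndufaf2 below it.

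On quantile-normalized log2 levels, 34 of the 95 tested members were called lower in HOMO and 26 higher (limma, adjusted p of at most 0.05). The background was high, with 48.5% of all 21002 tested probes called lower and 24.8% higher, and 50% and 22.2% of the 4890 tested genes. Among members the shares were 35.8% and 27.4%. The median difference (HOMO minus WT) was -0.06 over the members and -0.66 over the genes, while that of all probes was -0.56. Of the 95 members 33 lay lower on every HOMO array than on any WT array (34.7%, all tested genes 48.2%) and 28 lay higher (29.5%, all tested genes 20.9%). A member undetected in HOMO passed the detection filter only through WT, so a fall was built into its selection. Among genes as bright as most members, above the 90th WT percentile, 47.6% were called lower and 19.8% higher (members 23 and 24 of 73, or 31.5% and 32.9%). Among genes detected on all 8 arrays the shares turned to 18.7% and 45.5% (members 11 and 26 of 64, or 17.2% and 40.6%). Detection on every HOMO array leaves out dim genes that fell, so this selection favours a rise.

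The split between higher and lower depended on how arrays with a 41.7-fold gap were put on a common scale. Median centring called 95 members lower and 0 higher, where the median of all probes was itself at -2.26. The authors' deposited log2 values called 90 lower and 1 higher (all probes -1.83). Median centring with scaling to a common median absolute deviation, the method the study describes, called 35 lower and 46 higher (all probes -0.47). Within-array percentiles called 23 lower and 10 higher. Over all tested genes, the shares called lower and higher were 92.1% and 2.54% with median centring, 78.5% and 9.96% in the deposited values, 57.3% and 21.9% with absolute-deviation scaling, and 41.2% and 17.955% by percentile. Median centring and the deposited values move nearly all genes down, so keeping a fall or losing a rise there says little about a single member. No member was called higher under all 5 scalings, and 47 were called higher under some and lower under others. These 2 counts were not made over all tested genes, so they are not read as a trait of the members. Of the 34 members called lower, 27 kept that call with absolute-deviation scaling, 23 with percentiles and 34 under the other 2 scalings. In all, 23 members (24.2%, all tested genes 39.8%) were called lower under all 5 scalings.

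**Figure D3:**
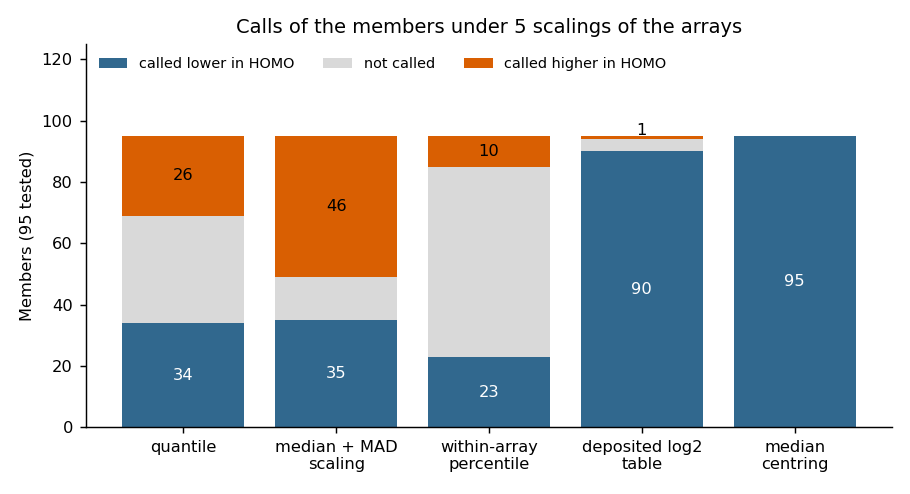
Number of the 95 tested members called lower, not called or called higher in HOMO (vertical axis, stacked) under 5 scalings of the arrays (horizontal axis). Quantile normalization gave 34 lower and 26 higher, and median centring 95 lower and 0 higher.

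The 23 members called lower under every scaling came from 9 of the 10 classes, all but inner membrane import. They included 7 of 21 complex I subunits (Ndufb2, Ndufb4, Ndufb5, Ndufb7, Ndufb9, Ndufa6 and Ndufab1), the assembly factors Ndufaf2 and Ndufaf4, Sdhaf3, Uqcrb, Cox7b and Atp5md. The TOM complex gave Tomm6, Tomm40 and Tomm70a, and the ribosome Mrpl19, Mrpl20, Mrpl35, Mrpl50, Mrps18b, Mrps18c and Mrps23. Of these 23, 14 were detected on no HOMO array and passed the filter through WT alone, 5 were detected on 1 to 3 and 4 on all 4. Those 5 were each detected on fewer than 3 HOMO arrays, so they too needed the WT arrays to pass.

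Of the 21 complex I subunits, 5 were detected on no HOMO array (23.8%, all genes 58.3%). Ndufb9, an accessory subunit there, had WT intensities of 909.8, 975.9, 616.9 and 807.4 and HOMO intensities of 2.2, 3.2, 0.8 and 0.1. It was at least 3.19-fold lower on the normalized scale, where a bound is set by the lowest level of any detected probe on each HOMO array. No p is given for members detected on fewer than 3 HOMO arrays, since they needed the WT arrays to pass the detection filter. Ndufb4, whose window with an NRF1 motif is printed above, read 559.6, 620.7, 372.1 and 612.7 in WT and 0.6, -0.6, -4.1 and -1.4 in HOMO, at least 2.12-fold lower. Every WT array was above every HOMO array for both genes. Ndufb7, Ndufb2 and Ndufab1 were also undetected on all HOMO arrays, but their WT levels (6.89, 6.13 and 5.18) lay below the lowest detected HOMO level (mean 7.09), so no fold is given.

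In the other complexes of the chain 2 of 4 complex II genes, 2 of 9 complex IV genes and 1 of 9 ATP synthase genes were detected on no HOMO array. Atp5md, a small protein bound to ATP synthase, read 765.7, 887.8, 564.7 and 633.0 in WT and 8.3, 6.0, 6.0 and 7.1 in HOMO, at least 2.76-fold lower. Sdhaf3, an assembly factor of complex II, was at least 1.80-fold lower and Cox7b, a small subunit of complex IV, at least 1.19-fold lower. Ndufb5 and Uqcrb, the latter a subunit of complex III that helps bind ubiquinone, were each detected on 2 HOMO arrays only. Uqcrb had WT intensities of 2184, 2605, 1489 and 1694 and HOMO intensities of 10.5, 9.8, 0.7 and 6.1, and fell by 3.55 on the log2 scale (SE 0.57). HOMO replicate 3 was the lowest for Uqcrb and Ndufb5 alike.

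Among import genes, Tomm70a encodes a receptor that takes carrier proteins from cytosolic chaperones. Its WT intensities were 463.9, 752.3, 427.9 and 385.1 and its HOMO intensities -3.0, 2.0, 0.1 and 1.3, at least 1.97-fold lower. Tomm40, the channel of the TOM complex, was dim from the start (29.5, 35.8, 15.8 and 30.9 in WT, detected on 3 arrays) and undetected in HOMO, so its fall has no fold. Leaving out WT replicate 1, 2 or 4 removed it from the tested probes. In the ribosome, Mrpl19 was at least 2.56-fold lower and Mrps18b at least 1.09-fold lower.

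Only 4 of the 23 were detected on all 8 arrays, so that a fold could be measured. Mrpl20, a protein of the large mitochondrial ribosomal subunit, had WT levels of 10.60, 10.35, 10.53 and 10.87 (log2) and HOMO levels of 9.04, 8.16, 7.93 and 8.83. It fell by 2.10 (SE 0.26, adjusted p = 1.26e-04, limma), and its deposited intensity was 182-fold lower, the largest ratio among members detected on all 8 arrays. Mrpl50, also of the large subunit, fell by 1.37 (SE 0.18, adjusted p = 1.72e-04), with WT levels of 10.42, 10.36, 10.40 and 10.57 and HOMO levels of 9.35, 8.79, 8.76 and 9.38. Ndufaf2, a chaperone that joins complex I late in its assembly, fell by 1.33 (SE 0.12, adjusted p = 1.38e-05), from levels between 10.30 and 10.46 to levels between 8.89 and 9.14. Mrps23, of the small subunit, fell by 0.50 (SE 0.15, adjusted p = 0.0148). In all 4 genes the groups did not overlap. The sizes above hold for the quantile scale only. With median centring Mrpl20 stood at -5.99, Mrpl50 at -5.62, Ndufaf2 at -5.62 and Mrps23 at -4.42. With absolute-deviation scaling they stood at -1.30, -0.72, -0.77 and -0.65.

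Ndufs4, an accessory subunit whose loss causes complex I deficiency in mice and people, belongs beside them with a caveat. Its WT levels were 10.68, 10.93, 11.20 and 11.19 and its HOMO levels 10.16, 10.03, 10.28 and 9.96, a fall of 0.89 (SE 0.16, adjusted p = 9.93e-04, limma). With scaling to a common median absolute deviation it stood at 0.32 (adjusted p = 0.245), so its direction was not kept. Its percentile difference (-1.75 points) was not called. The second probe of Ndufs4 gave a larger difference, -1.39 (SE 0.25).

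**Figure D4:**
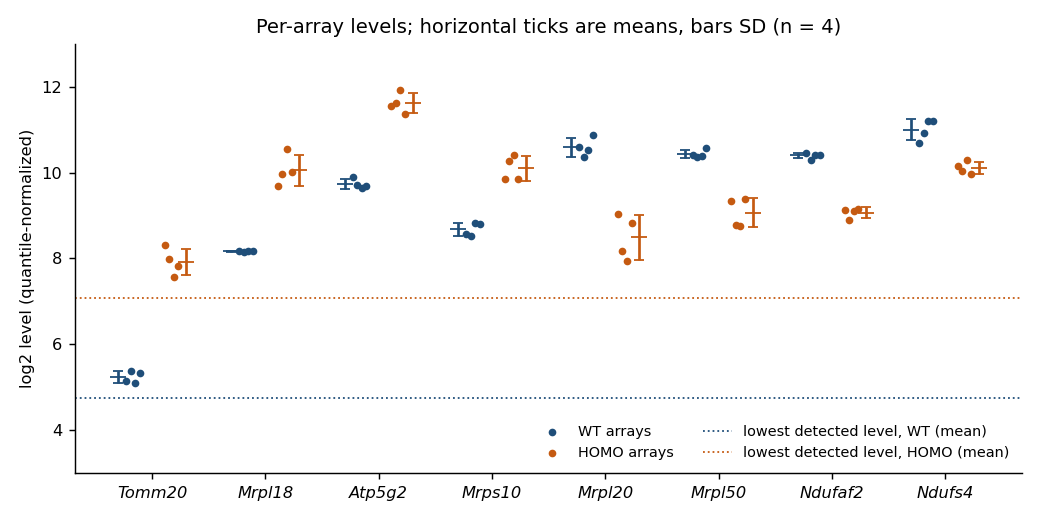
Quantile-normalized log2 level on each array (points) for the 4 members with the largest rise and the 4 with the largest fall among those detected on all 8 arrays, with mean and SD (n = 4) and, dotted, the mean lowest detected level of each group (4.76 in WT, 7.09 in HOMO). WT and HOMO arrays do not overlap for any of the 8 genes, and Tomm20 in WT lies under the lowest detected level of HOMO.

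Median centring and the deposited values place most members lower, so the rises below are described on the quantile scale and by rank. Tomm20, the receptor of the outer membrane that reads mitochondrial targeting signals, was at 36.3, 51.5, 28.0 and 44.1 in WT and at 16.5, 11.8, 8.5 and 12.6 in HOMO, only 3.24-fold lower in intensity where the array means fell 41.7-fold. Its level was 2.69 higher (SE 0.18, adjusted p = 2.54e-06, limma). That size is set in part by the scale, since a gene at 5.23 in WT that is detected in HOMO has to come out above 7.09. Tomm20 was higher under 4 of 5 scalings and lower under median centring (-0.40), where it lay 1.86 above the median of all probes. Its within-array percentile went from 63.7, 67.1, 63.2 and 66.5 to 89.4, 87.6, 85.0 and 86.6.

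Mrpl18, a protein of the large ribosomal subunit, had levels of 8.17, 8.16, 8.18 and 8.18 in WT and 9.69, 9.96, 10.55 and 10.01 in HOMO. Its difference was 1.88 (SE 0.18, adjusted p = 2.70e-05, limma). Atp5g2, a gene for the membrane ring of ATP synthase, also differed by 1.88 (SE 0.15, adjusted p = 7.79e-06), from 9.91, 9.70, 9.65 and 9.69 to 11.56, 11.63, 11.92 and 11.36. Mrps10, of the small ribosomal subunit, differed by 1.42 (SE 0.17, adjusted p = 1.11e-04). All 3 ranked higher within every HOMO array than within any WT array, Atp5g2 moving from 95.4 to 96.2 up to 99.0 to 99.3. Under median centring all 3 were called lower in HOMO. In the deposited log2 values Mrps10 was called lower (-0.91), while Mrpl18 (-0.40) and Atp5g2 (-0.14) were not called. Relative to the median of all probes, Mrpl18 was 1.43, Atp5g2 1.69 and Mrps10 0.93 higher in the deposited values, and -0.56, -0.61 and -1.06 under median centring.

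With Tomm20, these 3 belong to 9 members called higher under quantile, absolute-deviation and percentile scaling alike, the others being Ndufb3, Ndufa11, Cox7a2l, Mrpl27 and Mrps21. Cox7a2l, a protein that links complexes III and IV into supercomplexes, was at 9.99, 9.98, 9.86 and 9.84 in WT and 11.05, 11.02, 11.24 and 11.02 in HOMO (difference 1.17, SE 0.12, adjusted p = 2.90e-05, limma). Sdhc, a membrane anchor of complex II, differed by 1.14 (SE 0.12, adjusted p = 3.29e-05) and ranked at 97.3 to 97.7 in WT and 99.1 to 99.2 in HOMO, but its percentile difference was not called. Deposited intensities of these 9 genes and Sdhc were all lower in HOMO, by 3.24-fold to 28.4-fold, less than the fall of the array means. The median over all genes detected on all 8 arrays was 36.2-fold, also less than that fall. The 9 genes were picked for their rise on scales built from the same intensities, so these ratios add no separate support.

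**Figure D5:**
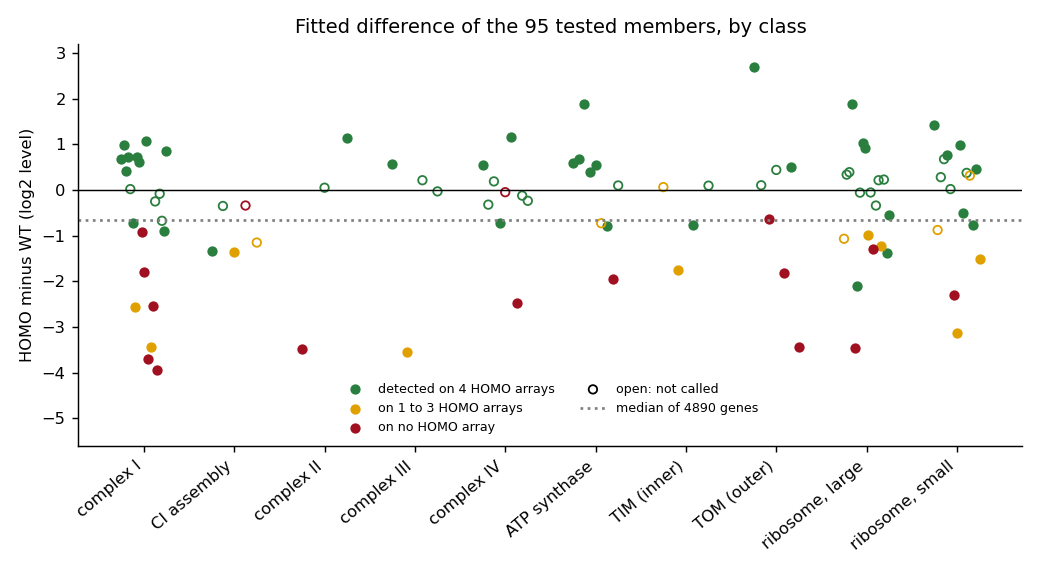
HOMO minus WT difference (log2, quantile-normalized) of the 95 tested members by class, coloured by detection in HOMO, filled where called. Points range from -3.94 (Ndufb9) to 2.69 (Tomm20), the dotted line marks the median of the 4890 genes (-0.66), and no member undetected in HOMO lies above 0.

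Calls by class on the quantile scale are to be read against all tested genes, of which 50% were called lower and 22.2% higher. No class was tested against these shares. Complex I subunits had 8 of 21 called higher, 9 lower and 4 not called. ATP synthase had 5 of 9 higher (Atp5g1, Atp5g2, Atp5c1, Atp5h and Atp5j2) and 2 lower (Atp5l and Atp5md). Complex IV had 2 of 9 higher and 2 lower, complex III 1 and 1 of 4, and complex II 1 and 1 of 3. Outer membrane import had 2 of 7 higher and 3 lower, and inner membrane import 0 of 4 higher and 2 lower. The large ribosomal subunit had 3 of 18 higher and 7 lower, and the small one 4 of 15 and 5. Assembly factors of complex I had 0 of 5 higher and 2 lower. Among members called lower on this scale, Atp5l and Cox6c were called higher with absolute-deviation scaling.

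Subunits built into the same complex received different calls. In complex IV, Cox6c fell by 0.71 (SE 0.13, adjusted p = 0.00101, limma) while Cox7c differed by -0.12 (adjusted p = 0.533) and Cox6b1 by 0.19 (adjusted p = 0.319). With absolute-deviation scaling Cox6c reversed to 2.82, and Cox7c (3.79) and Uqcrh (4.61) were called higher. In complex III, Uqcrh stood at -0.03 (SE 0.15) and Uqcrc1 at 0.22 (SE 0.12, adjusted p = 0.136), beside the fall of Uqcrb. In ATP synthase, Atp5j2 differed by 0.55 (SE 0.14, adjusted p = 0.00612) and Atp5h by 0.39 (SE 0.12, adjusted p = 0.0204), the latter call ending without HOMO replicate 2 (0.32, adjusted p = 0.054). Sdhb, the iron-sulfur protein of complex II, differed by 0.05 (SE 0.13, adjusted p = 0.739), between the rise of Sdhc and the fall of Sdhaf3.

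Related genes could be compared within families. Atp5g1 and Atp5g2 encode the same mature ring subunit behind different import signals. Atp5g1 differed by 0.69 (SE 0.16, adjusted p = 0.00462, limma) and Atp5g2 by 1.88, and intensity was 29.5-fold lower in HOMO for Atp5g1 and 12.52-fold lower for Atp5g2. Cox7a1 was undetected in HOMO, but its WT level (5.11) lay below the lowest detected HOMO level (mean 7.09). It therefore cannot be set against the Cox7a2l rise above. Mrps18b and Mrps18c both encode proteins of the small subunit. Mrps18c read 1869, 1925, 1346 and 1641 in WT and 5.3, 3.0, 10.8 and 10.9 in HOMO, was detected on 2 HOMO arrays and fell by 3.13 (SE 0.62). The small TIM chaperones guide membrane proteins between the membranes. Among them Timm8b fell by 0.76 (SE 0.22, adjusted p = 0.0122) with overlapping groups, Timm9 differed by 0.10 (SE 0.13) and Timm10b by 0.07 (SE 0.23). The differences between relatives were not tested.

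Ranks within an array are not changed by any scaling between arrays. The members picked above for the size of their difference are described here by rank, with no test. Mrpl20 lost 7.64 percentile points, Mrpl50 lost 4.54 and Ndufaf2 lost 4.38, each with all HOMO arrays below all WT arrays. Tomm20 gained 22.03 points, Mrpl18 7.92, Mrps10 5.45 and Atp5g2 3.48. A probe near the top has little room to rise, so Atp5j2 went only from 99.5 to 99.7 up to 99.7 to 99.8, a gain of 0.16 points. Atp5j2 was picked for its brightness and not for its change, and its gain reached the smallest exact permutation p that 4 against 4 arrays allow (0.0286, two-sided, unadjusted). No adjusted p is given, since the members chosen for naming include some picked for the size of their change. That smallest p was reached by 23 of the 38 members chosen for naming, so it does not single out Atp5j2. Uqcrh (p = 0.829, exact permutation test), Ndufa4 (p = 0.914), counted here with complex I by its symbol although its protein belongs to complex IV, and Mrps17 (p = 0.829) moved by less than 0.1 points.

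Leaving out 1 array changed the call of 17 members. Timm21, a TIM subunit that links to the respiratory chain, was called lower at -1.76 (adjusted p = 0.0409, limma). It lost the call without any one of the 4 WT arrays or HOMO replicate 4, although the difference stayed between -1.91 and -1.70 (adjusted p of 0.0568 to 0.0831). Mrpl30 (-1.02 to -0.94), Mrps6 (-1.52 to -1.43) and Mrps33 (-0.80 to -0.73) likewise kept their size and lost the call without any one WT array, the first also without HOMO replicate 2 and Mrps6 without HOMO replicate 3. The calls of these 4 genes lay close to the threshold and did not hang on a particular WT array. Mrpl51 lost its call without WT replicate 1 or 4. In the other direction, Ndufs3, Ndufaf7, Cox6a1, Atp5k and Mrpl4 became lower, and Tomm5, Mrpl12, Mrpl49, Mrps15 and Mrps26 higher, when 1 array was left out. Mrpl49, for example, was at 9.77, 9.55, 7.59 and 9.13 in HOMO, and without replicate 3 differed by 0.71 (adjusted p = 0.0108).

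Second probes existed for 11 members, 8 of which had several tested probes, and in 2 of these the calls differed. For Cox6b1 the brighter probe gave 0.19 and the other 0.73 (SE 0.19, adjusted p = 0.0084, limma). For Mrpl1 the brighter probe gave -1.07 (adjusted p = 0.121) and a probe that was dim in WT (mean 63.0) gave 2.71. Both probes of Cox5b were higher (0.54 and 0.49) and all 3 probes of Timm21 lower.

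Mitochondrial genes outside the rule were read from lists of known members, whose counts have the same background (50% of all tested genes lower, 22.2% higher) and were not tested against it. Of the citric acid cycle and pyruvate dehydrogenase genes, 2 of 7 tested were higher and 4 lower. Mdh2, mitochondrial malate dehydrogenase, was at least 7.63-fold lower and Idh3b fell by 1.60 (adjusted p = 0.00623, limma). Among genes of cytochrome c, its cofactors and assembly, 2 of 13 were higher and 7 lower, and the brightest, Uqcc2 and Cyc1, differed by 0.18 and 0.19 without a call. Carriers, porins and other import genes had 0 of 7 higher and 5 lower. Vdac1, the main porin of the outer membrane, stood at 0.03 (SE 0.13), and Slc25a5, an ADP/ATP carrier, fell by 0.63. Genes for upkeep and transcription of mitochondrial DNA had 0 of 4 higher and 3 lower, and translation factors with tRNA synthetases 2 of 12 and 6.

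Transcriptional regulators of mitochondrial genes were dim. Of 7 measured, 4 were tested, 0 were called higher and 3 lower, and none was detected on any HOMO array. Gabpb1, a subunit of the ETS factor GABP, was at least 1.40-fold lower, and Gabpa, its DNA-binding partner, was called lower with no fold. The probe of Yy1 was detected on no array. Their levels in HOMO were thus not measured, and no relation to the motifs printed above was tested.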

How the data were processed

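Total RNA of sorted EGFP-positive cells was hybridised to 8 arrays, 4 WT and 4 HOMO. Which version of the WG-6 array was used is not settled, since labels and methods differ. The authors deposited GenomeStudio (version not given in the sources used here) intensities, background-subtracted and sometimes negative. The authors also deposited a detection p-value column that holds 1 minus the p. The deposited normalized values are log2 intensities (floor of 1) minus each array's median, apart from a constant for each probe. They carry the probe names, of which 38432 of 46624 matched 1 intensity row. Zero-padded numbers in 11857 names were read as NCBI gene identifiers, and 82.6% of them are mouse gene identifiers.

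Here limma 3.58.1 in R 4.3.3 was used for normexp background correction based on detection values (offset 16), for quantile normalization and for log2 transformation. Probes with a detection value above 0.95 on at least 3 of 8 arrays were tested (21002, after 3 control probes were left out) with lmFit and eBayes, two-sided, Benjamini-Hochberg adjusted over all of them. Calls required an adjusted p no higher than 0.05. Differences are HOMO minus WT. A member undetected on all HOMO arrays is given as "at least N-fold lower" against the lowest detected level of each HOMO array, or its own level where higher. Ranks were compared with the exact permutation test over arrays. Python 3.11.15 with pandas 2.3.3 and matplotlib 3.10.9 read the tables and drew the figures. The fitting step was tested on simulated data that held neither the signal gap between the groups nor the HOMO detection limit, so that test does not cover them. Replicates are biological per the study's methods, and their number limits the precision of each value.

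The members, the gene lists and the tests were chosen with earlier results of these data known. Members named with values were the 2 brightest in WT of each class, the 4 largest called rises and falls among members detected on all 8 arrays, and families of isoforms or paralogs. Other members were named after their values were seen. Alternatives covered the scaling, filter, offset, moderation, probe choice, replicate block and each single array.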

Additional observations from a re-analysis of the deposited data

Results flagged for a closer look

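Among the members chosen for naming, 76 groups of 4 arrays were examined for an array that stood apart from the other 3, and 10 groups held one. Chance alone would give about 5% of groups. Levels are quantile-normalized log2 values.

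In WT, replicate 2 stood lowest for Tomm5 (9.19, the next at 9.75), Atp5g1 (10.30, the next at 10.79) and Timm10b (7.42, the next at 7.65). WT replicate 1 stood lowest for Cox6c (11.86, the next at 12.15) and WT replicate 3 for Cox7b (7.0004, the next at 7.40). In HOMO, replicate 3 stood highest for Mrpl17 (11.63, the others at 11.37 to 11.38) and Cox7a2l (11.24, the others at 11.02 to 11.05). HOMO replicate 2 stood lowest for Ndufaf2 (8.89, the next at 9.10) and HOMO replicate 4 for Uqcrc1 (10.53, the next at 10.79). HOMO replicate 1 stood highest for Cox7b (6.02), which was not detected on that array or on any other HOMO array.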

How the results depend on the processing

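The counts of members called lower (34) and higher (26) rested on the scaling. Median centring gave 95 and 0 with a median difference of -4.22, the authors' deposited log2 values 90 and 1 (-2.14), and absolute-deviation scaling 46 higher with a median of 0.32. Percentiles gave 10 higher, and their differences are in points. Testing only probes detected on all 8 arrays, which leaves out members lost in HOMO, gave 12 lower and a median of 0.26. Ranked among detected probes alone, the members' median percentile was 90.6 in WT and 84.0 in HOMO. Omitting the filter, an offset of 50, no variance moderation, another probe choice and a detection value of 0.99 kept every count within 1.5 times. Leaving out 1 array gave 28 to 35 lower, 25 to 28 higher, a median difference of -0.16 to -0.04 and median percentiles of 95.5 to 95.7 in WT and 95.4 to 95.6 in HOMO.

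These members, at 0 or above with quantile normalization, fell below 0 with median centring, by which Ndufa13 stood at -4.21, Ndufa4 -4.75, Sdhc -3.59, Sdhb -4.72, Uqcrc1 -4.61, Atp5j2 -3.87, Atp5h -4.22, Timm9 -4.62, Tomm7 -4.29, Tomm5 -4.30, Mrpl17 -4.37, Mrps24 -4.44, Mrps17 -4.75, Tomm20 -0.40, Mrpl18 -2.82, Atp5g2 -2.87, Mrps10 -3.32, Cox6b1 -4.56, Cox7a2l -3.63, Atp5g1 -4.08 and Timm10b -3.19. In the deposited log2 values Ndufa13 stood at -1.41, Ndufa4 -1.99, Sdhc -0.88, Sdhb -2.26, Uqcrc1 -2.05, Atp5j2 -1.05, Atp5h -1.42, Timm9 -2.25, Tomm7 -1.80, Tomm5 -1.91, Mrpl17 -1.68, Mrps24 -1.81, Mrps17 -2.33, Mrpl18 -0.40, Atp5g2 -0.14, Mrps10 -0.91, Cox6b1 -1.85, Cox7a2l -0.99, Atp5g1 -1.39 and Timm10b -1.49. With absolute-deviation scaling Uqcrh (4.61), Cox6c (2.82), Cox7c (3.79), Ndufs4 (0.32), Cox6a1 (1.45), Cox8a (2.17) and Timm10b (-0.58) changed sign. Near 0, single arrays turned the sign of Cox7a1 (-0.20 to 0.13), Mrps17 (-0.0504 to 0.0836), Ndufa4 (-0.0575 to 0.107), Sdhb (-0.0275 to 0.113), Timm10b (-0.11 to 0.26) and Uqcrh (-0.12 to 0.0586), none of which was called. The cause of these changes was not tested.

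Same-numbered arrays of the 2 groups did not deviate together (correlations of 0.0189, 0.0281, -0.033 and 0.0025), so the numbers do not pair them. With the replicate number as a block, 33 members were lower and 24 higher, the median difference stayed at -0.06, and Ndufa13 (adjusted p = 0.057) and Atp5h (adjusted p = 0.0754, limma) lost their calls. In HOMO the lowest detected level (7.09) sets what can be measured.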
